A study of Chlamydomonas reinhardtii with 45 samples.

Results

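The transcripts described here are those of the green alga Chlamydomonas reinhardtii that were raised by NaCl at 4, 6 and 24 h alike. They were chosen by a rule on group means, as deposited: the mean of log2(TPM + 1) in NaCl minus that in control 0 h had to be 1.5 or more at each of the 3 times (TPM is a transcript's share of a library after correction for its length). The table lists 19526 transcripts, of which 13651 reached 1 TPM in 3 or more of the 45 libraries, and 134 of these (0.982%) met the rule. The wild-type strain CC-4533, grown in TAP, an acetate medium, under continuous low light, was given 100 mM NaCl or 300 mM mannitol. The groups were NaCl at 15, 30 and 60 min and at 4, 6 and 24 h and mannitol at the same times, with 3 libraries each, and control 24 h (4 libraries) and control 0 h (5 libraries) without an added osmolyte. Replicates were grown on different days, and the times of 1 replicate were sampled from 1 flask, so libraries of different times may not be independent.

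Salt and sugar alcohols both draw water out of a cell. NaCl adds ions that can enter and harm it, whereas mannitol is largely an osmotic load. Chlamydomonas is a freshwater alga that expels excess water through contractile vacuoles and is known to make glycerol as a compatible solute when salt is added. Stress transcripts of algae can be short-lived or can last as long as the load does. Setting NaCl beside mannitol addresses which of the lasting ones another osmolyte also raised. The osmolytes were given at different molar concentrations, and their osmotic strengths were not compared here. Whether a difference between NaCl and mannitol came from the ions or from unequal osmotic loads was not tested.

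Because NaCl 4, 6 and 24 h and control 0 h chose the members, every difference from control 0 h is given as a description and without a test. Tests were made only between groups that the rule did not use: NaCl at 15, 30 and 60 min and mannitol from 30 min on were set against control 24 h, NaCl was set against mannitol at 30 and at 60 min, and mannitol 24 h against mannitol 60 min. A transcript was called at an adjusted p under 0.01 and more than 2-fold in limma over all 13651 transcripts, and each count of called members stands beside the share called among all of them. Control 24 h matches the 24 h treatments in age, and in comparisons with earlier times the osmolyte and the age of the culture cannot be told apart.

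Neither the deposited table nor the reference gene table pairs the members with a name or a product, so they are given by identifier. Of the 134, 103 had identifiers of the Cre form and 31 a bare g number. Of the 103, 101 were found in the RefSeq gene table of assembly v5.5, and 4 pairs of members were immediate neighbours there: Cre12.g552950 with Cre12.g553000, Cre13.g569000 with Cre13.g569050, Cre02.g097050 with Cre02.g097100, and Cre08.g367400 with Cre08.g367500. Among the tested transcripts of genes next to a member, 8 of 144 were members (5.56%), and among all matched genes 1.02% were. Only 1 other transcript of a member gene was in the table, Cre05.g243450.t1.3, which lay 1.31, 0.97 and 1.25 above control 0 h at NaCl 4, 6 and 24 h on the log2 scale and so missed the threshold. The study's lists were matched by Cre identifier, so the 31 members with a g number could not be found there. None of the other 103 was among the 47 tested genes of its mutant screen list. None was among the 27 tested genes of its list of phosphorylated proteins either. At 0.982% of all transcripts, however, lists of this size may well hold none. A list of 28 identifiers was drawn up under glycerol synthesis, photoprotection, chaperones and antioxidant enzymes, with earlier results of these data known. It was not limited to tested genes. Of the 28, 5 were members (0.982% of all tested transcripts were), which is no independent observation: Cre01.g053000, Cre08.g367400, Cre08.g367500, Cre10.g458450 and Cre16.g688550. The tables used give these no annotation, so no role is assigned.

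Each library sums to 1000000 TPM, and its number of reads is unknown. A single transcript, g15293.t1, took 5.33% to 52.3% of a library, so that the levels of all others depend on it; it averaged 41.1% in NaCl 60 min and 13.96% in mannitol 30 min, against 25.4% in control 0 h. With TPM recomputed without it, an alternative added after the data were seen, 192 transcripts met the rule, the 134 among them. Scaling by median ratios moved the median of all transcripts by over 0.1 on the log2 scale in several comparisons, given beside the results that it changed. Of the 45 libraries, 14 carry label numbers of 49 or higher, called a library series here from the numbers alone: replicate 3 of the treated groups and replicate 5 of both controls. Control 24 h replicate 5 deviated from its group together with replicate 3 of the treated groups (across transcripts, r = 0.353 to 0.706), so counts are also given without it where they moved.

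The members' mean level in control 0 h ranged from 0.0329 to 164 TPM with a median of 3.97 TPM, beside a median of 5.48 TPM for all tested transcripts, and 27 of 134 lay under 1 TPM, so that the differences of these 27 depend on the pseudocount. In NaCl 24 h the median was 35.1 TPM and 28 members averaged 100 TPM or more. All 134 reached 1 TPM in at least 3 libraries outside NaCl, so none passed the filter through NaCl alone. The members together made up 0.951% ± 0.161 of NaCl 24 h libraries (SD, n = 3), against 0.0777% ± 0.0221 of control 24 h (SD, n = 4) and 0.120% ± 0.0206 of control 0 h libraries (SD, n = 5). The lowest NaCl 24 h library held 0.766% and the highest control library 0.148%. The rule chose the members by NaCl 24 h and control 0 h, so a gap between those sums was largely fixed by the choice. No single transcript carried this sum: the most abundant, g9176.t1, was 6.19% of it in NaCl 24 h.

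The median member was 2.21, 2.31 and 2.49 above control 0 h at NaCl 4, 6 and 24 h on the log2 scale, where 2.04%, 1.80% and 1.84% of all transcripts passed 1.5; these values restate the rule. What the rule did not fix was the course after 4 h. Of the 134, 87 were higher at 24 h than at 4 h, and the highest NaCl time was 24 h for 71 members, 6 h for 17, 4 h for 15, 60 min for 14 and 30 min for 17. Neither was counted over all transcripts, so these counts describe the members only. The widest gap upward was that of g9176.t1, 3.42 higher at 24 h than at 4 h, and the widest downward that of Cre03.g207800.t1.2, which was lower at 24 h than at 4 h (152, 103 and 384 TPM at 4 h, 39.1, 29.0 and 78.1 TPM at 24 h). The heat map of all members against control 0 h shows both kinds side by side.

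**Figure D1:**
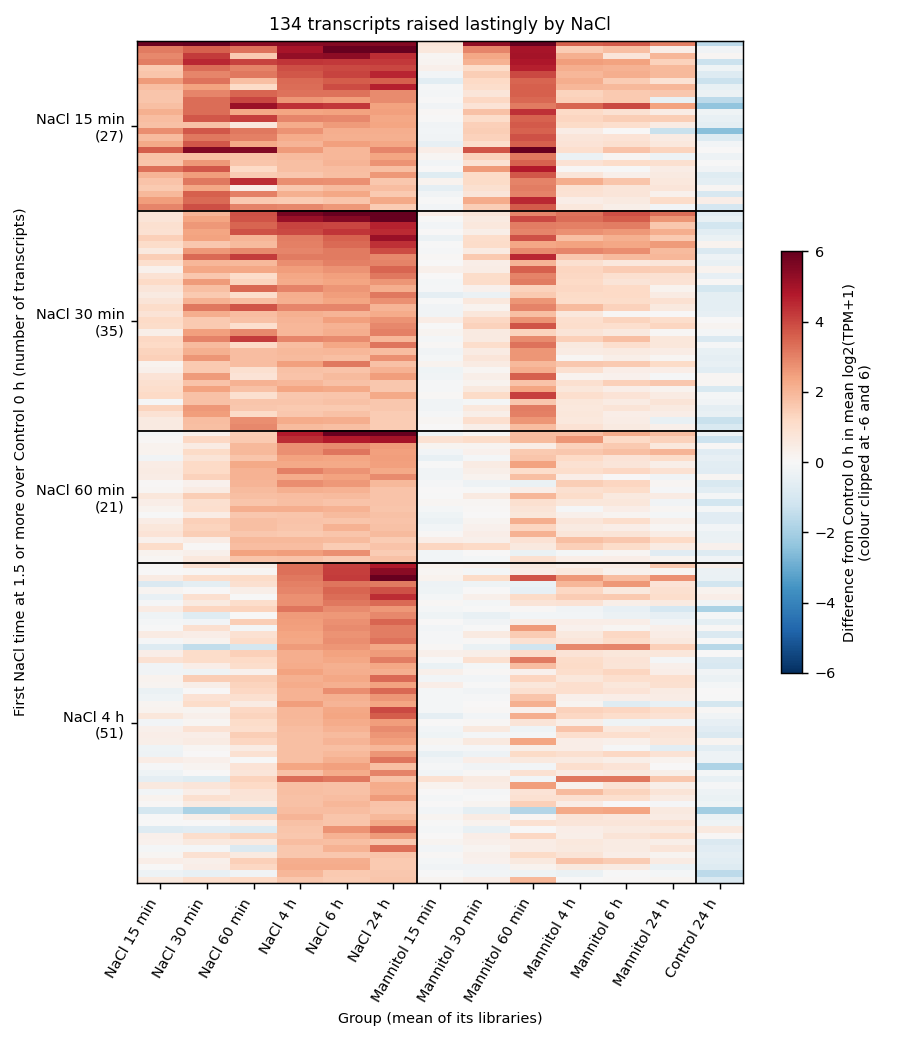
Differences of the 134 members from control 0 h in mean log2(TPM + 1), one row per transcript and one column per group, ordered by the first NaCl time at 1.5 or more (from top: 15 min, 27 transcripts; 30 min, 35; 60 min, 21; 4 h, 51). The NaCl 4, 6 and 24 h columns are high by the rule; mannitol 60 min is the one mannitol column in which most rows are high (80 of 134 at 1.5 or more), and control 24 h is mostly below 0.

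The members with the largest differences took several courses. For some the level was higher at each time from 4 h to 24 h. g9176.t1 had 53.2, 34.8 and 77.8 TPM in NaCl 4 h, 105, 108 and 169 TPM in NaCl 6 h and 512, 448 and 805 TPM in NaCl 24 h, against 0.921, 1.07, 0.752, 1.03 and 1.13 TPM in control 0 h. In mannitol 24 h the same transcript had 5.66, 3.62 and 10.9 TPM, against 0.372, 0.619, 0.184 and 1.43 TPM in control 24 h. Every NaCl 24 h library thus lay far above every mannitol 24 h library, and every mannitol 24 h library above every control library.

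Cre07.g321800.t1.2 was also far higher at 24 h than at 4 h. It had 546, 367 and 619 TPM in NaCl 24 h and 127, 76.6 and 115 TPM in NaCl 4 h, against 2.96, 1.91, 2.95, 1.34 and 3.34 TPM in control 0 h. In mannitol it was high at 60 min, at 94.3, 98.9 and 123 TPM, and had 2.87, 1.25 and 9.42 TPM at 24 h, against 1.09, 1.82, 0.723 and 6.01 TPM in control 24 h. The mannitol 24 h and control 24 h libraries overlapped, and the difference of 0.63 (SE 0.58) did not pass the test (limma adjusted p = 0.62), whereas the NaCl 24 h libraries stood above all of them. Its difference of NaCl 24 h from mannitol 24 h, 6.80, was the largest of all members.

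Cre05.g235950.t1.2, the member whose smallest difference was largest, had 305, 246 and 334 TPM in NaCl 24 h and 122, 71.9 and 150 TPM in NaCl 4 h, against 1.51, 2.14, 1.67, 0.228 and 0.850 TPM in control 0 h. In mannitol 24 h it had 16.6, 14.2 and 37.7 TPM, against 0.186, 0.309, 0.184 and 0.816 TPM in control 24 h. That rise of 4.01 (SE 0.33) on the log2 scale passed the test (limma adjusted p = 5.0e-05), although control 24 h lay under 1 TPM and the fold therefore depends on the pseudocount. Cre02.g081700.t1.1 had 287, 201 and 347 TPM in NaCl 24 h and 127, 89.1 and 166 TPM in NaCl 4 h, against 3.02, 2.91, 3.02, 1.97 and 1.56 TPM in control 0 h. Also among the 10 widest were g7557.t1, g7574.t1 and Cre02.g080150.t1.3, at 5.01, 4.63 and 4.48 above control 0 h in NaCl 24 h. In all 5 the NaCl 24 h libraries lay above every control library, which the rule largely fixed.

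Others were far above control 0 h within minutes. Cre01.g053000.t1.2 had 336, 309 and 407 TPM after 15 min of NaCl and 255, 191 and 397 TPM after 24 h, against 4.53, 2.95, 5.19, 4.35 and 9.25 TPM in control 0 h. Its mean difference stayed between 5.40 and 6.55 at all 6 NaCl times. Cre11.g482650.t1.3 was also raised after 15 min but was then below its later level, at 43.9, 37.8 and 38.4 TPM. It averaged 114 TPM after 30 min and had 104, 77.3 and 96.4 TPM after 24 h, against 2.99, 3.90, 3.87, 4.31 and 4.77 TPM in control 0 h. No NaCl library of either transcript overlapped a control library. Of the 134 members, 23 were at 1.5 or more at all 6 NaCl times, of which the rule fixed the last 3, and the share of all transcripts was not counted.

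**Figure D2:**
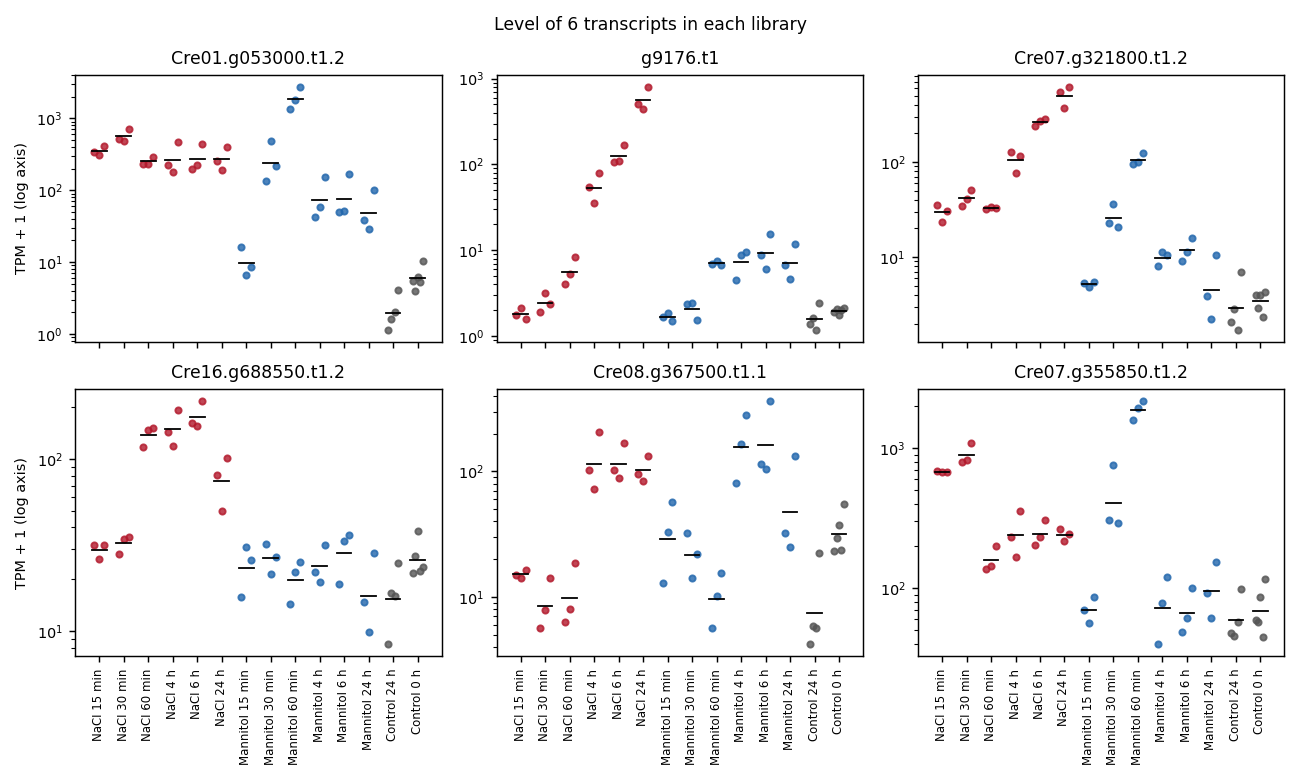
TPM + 1 on a log axis for 6 members in every library (red NaCl, blue mannitol, grey controls); points are libraries and bars the mean of log2(TPM + 1). Cre01.g053000.t1.2 is high from NaCl 15 min on, g9176.t1 and Cre07.g321800.t1.2 are highest at NaCl 24 h, Cre16.g688550.t1.2 is high in NaCl from 60 min and near control 0 h in mannitol, Cre08.g367500.t1.1 is high late in both osmolytes, and Cre07.g355850.t1.2 has its highest values in mannitol 60 min (1586, 1937 and 2180 TPM).

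The early NaCl times, which the rule did not use, showed when the members first reached 1.5 over control 0 h. At 15 min 27 of 134 were at 1.5 or more over control 0 h (0.806% of all transcripts), at 30 min 62 (2.89%) and at 60 min 70 (2.25%), with medians of 0.48, 1.35 and 1.56 against -0.31, -0.63 and -0.57 for all transcripts. The first NaCl time at 1.5 or more was the 15 min one for 27 members, the 30 min one for 35, the 60 min one for 21 and the 4 h one for 51. This is a first crossing and not a first change. Of the 51, 8, 16 and 31 were called higher than control 24 h at 15, 30 and 60 min (5.14%, 9.87% and 10.6% of all transcripts). The course was not always upward, since 43 members were lower at 60 min than at both 30 min and 4 h, and 6 of them by 1 or more. How common such a dip was among all transcripts was not counted, so it is not read as a trait of the members. Of those 6 the widest dip was that of Cre08.g360200.t1.2, which had 17.5, 15.9 and 20.6 TPM at 30 min, 1.89, 2.62 and 1.84 TPM at 60 min and 43.6, 33.0 and 39.3 TPM at 4 h, against 0, 0, 0, 0.165 and 0 TPM in control 0 h. The 60 min libraries of this transcript lay below all others in NaCl. The other 5 were Cre07.g353250.t1.2, Cre02.g115950.t1.2, g6346.t1, Cre06.g299900.t1.3 and Cre06.g306000.t1.3.

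Against control 24 h the early rise passed the test for many members. In NaCl 15 min 62 of 134 were called higher (46.3%), against 5.14% of all transcripts, and 1 was called lower (1.23% of all). In NaCl 30 min 91 were higher (9.87% of all) and 1 lower (15.6%), and in NaCl 60 min 111 were higher (10.6%) and 1 lower (21.2%). The median member was higher by 1.08, 1.89 and 1.98 on the log2 scale at the 3 times, and the median of all transcripts changed by -0.01, -0.33 and -0.28. Without replicate 1 of NaCl 15 min 39 members were called in either direction at that time, in place of 63 (6.37% of all), and with no filter on low values 38 were. Members were thus called higher in several times the share of all transcripts at each time, while calls in the other direction, common among all transcripts at 30 and 60 min, were nearly absent.

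The largest of these changes were in Cre01.g053000.t1.2, higher by 7.46 (SE 0.36) in NaCl 15 min (limma adjusted p = 2.0e-06), and in g1771.t1 and Cre03.g207800.t1.2. g1771.t1 had 305, 284 and 240 TPM in NaCl 30 min, against 2.34, 3.76, 2.98 and 1.84 TPM in control 24 h, a log2 difference of 6.24 (SE 0.21, limma adjusted p = 7.0e-08). Control 0 h held 27.0, 17.0, 22.4, 21.5 and 13.8 TPM of it, so the difference from control 0 h was smaller, 3.73. Cre03.g207800.t1.2 had 231, 288 and 397 TPM in NaCl 60 min, against 0.254, 0.844, 0.753 and 0.836 TPM in control 24 h, a difference of 7.498 (SE 0.24, limma adjusted p = 5.7e-08). Its control 24 h lay under 1 TPM, so this difference depends on the pseudocount. For this transcript too control 0 h was higher, at 8.68, 8.25, 6.84, 6.53 and 8.12 TPM. In all 3 transcripts the NaCl libraries lay above every library of both controls.

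The 1 member called lower was the same at the 3 times, g11098.t1. It had 14.2, 15.3 and 11.8 TPM in NaCl 15 min, 12.6, 12.5 and 19.2 TPM in NaCl 30 min and 11.4, 15.5 and 13.8 TPM in NaCl 60 min, against 28.3, 31.5, 33.3 and 55.8 TPM in control 24 h. The differences were -1.33 (SE 0.24), -1.25 (SE 0.26) and -1.35 (SE 0.25), with limma adjusted p = 0.0044, 0.0024 and 0.00091. Its control 24 h lay 0.57 above control 0 h on the log2 scale, the most of any member. The differences from control 0 h were therefore smaller. The call at 30 min ended under median-ratio scaling (-0.90, limma adjusted p = 0.013), leaving out single libraries ended those at 15 and 30 min, and fitting with no filter ended all 3. At 24 h of NaCl the same transcript had 237, 198 and 405 TPM, above every control library.

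**Figure D3:**
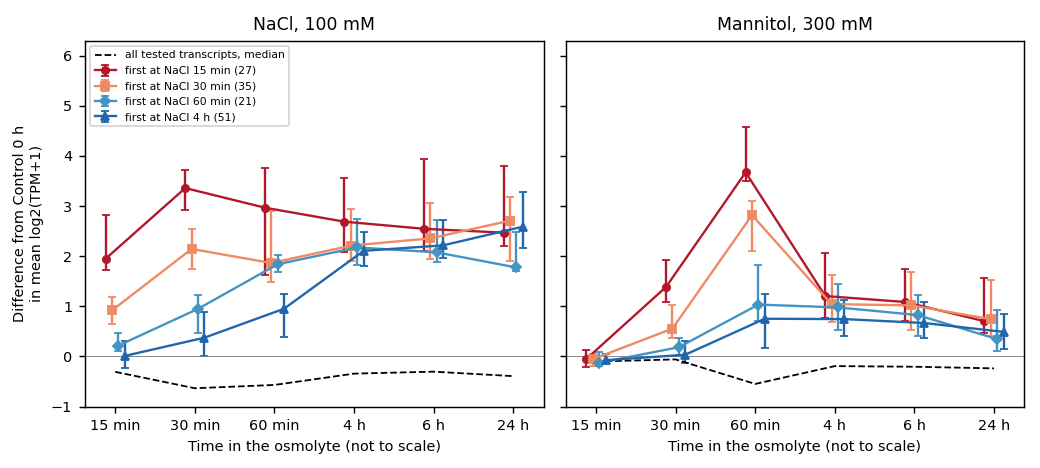
Median difference from control 0 h in mean log2(TPM + 1) by time, in NaCl (left) and mannitol (right), for members grouped by the first NaCl time at 1.5 or more; bars are the lower and upper quartiles over transcripts and the dashed line is the median of all 13651 transcripts. In NaCl all 4 medians lie above 1.5 from 4 h on by the rule and run from 1.77 (60 min) to 2.71 (30 min) at 24 h. In mannitol the groups that first reached 1.5 at 15 and 30 min of NaCl peak at 60 min (medians 3.67 and 2.82), and all 4 lie at 0.74 or less at 24 h.

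In mannitol most members were highest at 60 min. The rule chose them for a high level at the late NaCl times and set no such condition in mannitol, so a longer course in NaCl than in mannitol is partly fixed by the choice and was not tested. At 15 min of mannitol no member was at 1.5 or more over control 0 h (0.103% of all transcripts; median -0.07), and 9 were at 30 min (0.520%; median 0.39). At 60 min 80 were (5.79%; median 1.92), at 4 h 33 (0.608%; median 0.96), at 6 h 34 (0.483%; median 0.82) and at 24 h 21 (0.483%; median 0.55). Of the 6 mannitol times, that of 60 min was the highest for 90 members, 4 h for 22, 6 h for 17 and 24 h for 5, which was not counted over all transcripts. At no mannitol time did 43 members reach 1.5. That count was not made over all transcripts, so it is not read as a trait of the members. These differences share the control 0 h libraries with the rule and are values only.

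The summed level of the members followed the same course. It was 0.955% ± 0.0523 of mannitol 60 min libraries (SD, n = 3), beside 0.951% of NaCl 24 h libraries, and 0.192% ± 0.0694 of mannitol 24 h libraries (SD, n = 3). The sum in mannitol 60 min was less evenly made up than that in NaCl 24 h: 5 transcripts held 53.1% of it, against 23.5% in NaCl 24 h, and Cre01.g053000.t1.2 alone 20.5%. Cre07.g355850.t1.2 was the other large part, with 1586, 1937 and 2180 TPM in mannitol 60 min, against 47.1, 44.7, 56.5 and 98.4 TPM in control 24 h.

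Against control 24 h, 41 members were called higher in mannitol 30 min (30.6%; 3.78% of all transcripts), 103 in mannitol 60 min (76.9%; 14.7%), 63 in mannitol 4 h (47.0%; 2.66%), 54 in mannitol 6 h (40.3%; 2.20%) and 25 in mannitol 24 h (18.7%; 0.908%). No member was called lower at any of the 5 times, at which 0.366%, 17.1%, 1.22%, 0.798% and 0.168% of all transcripts were, although limma gave 90, 120, 116, 115 and 101 members an unadjusted p under 0.05 in either direction and 1 member was called lower at 30 min with the library series as a term. The median member was higher by 0.94, 2.39, 1.38, 1.32 and 1.05 on the log2 scale, beside 0.25, -0.24, 0.10, 0.09 and 0.08 for all transcripts. The 60 min count rested on no single library (92 to 107 with each left out), but the others did. Without replicate 1 of mannitol 24 h 6 members were called at 24 h, without replicate 2 there were 13, without control 24 h replicate 3 or 4 there were 16, and without control 24 h replicate 5 there were 46. With the library series as a term, 67 were called at 24 h and 86 at 6 h, and with no filter on low values 2 were called at 24 h, 26 at 6 h, 6 at 4 h and 2 at 30 min.

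The mannitol 30 min count, 41 in either direction beside 4.15% of all transcripts, was 11 without replicate 1 of mannitol 30 min, 19 without replicate 2 and 64 without control 24 h replicate 5, and it was 11 under median-ratio scaling, which moved the median of all transcripts from 0.25 to 0.02. At 4 h it was 22 without replicate 2 of mannitol 4 h. At 6 h it was 35 without replicate 1 and 27 without replicate 2 of mannitol 6 h, and 28, 32 and 26 without control 24 h replicate 2, 3 and 4.

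**Figure D4:**
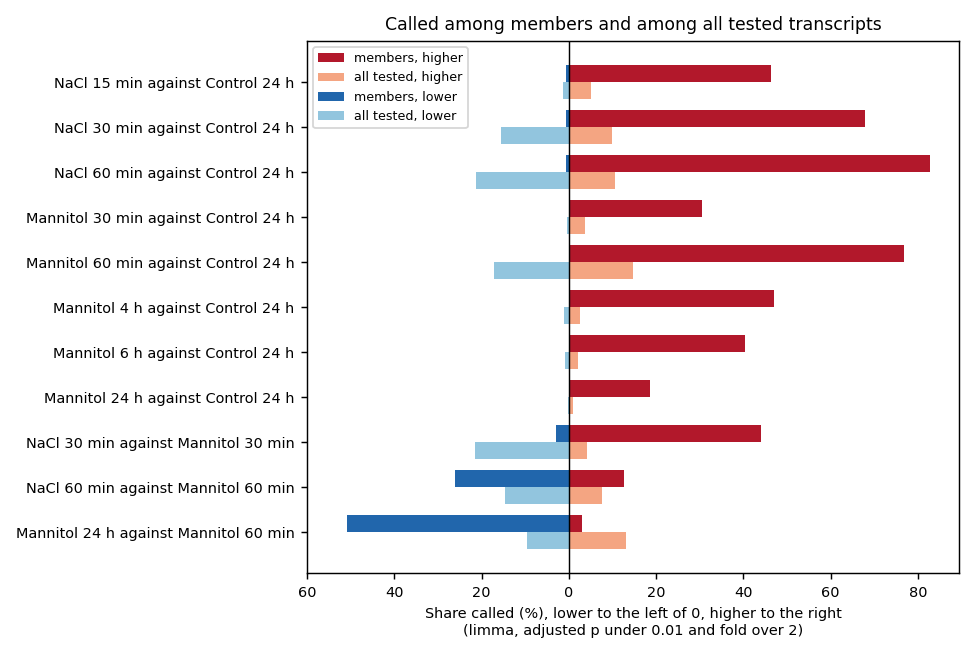
Percentage called higher (right of 0) and lower (left of 0) in limma at an adjusted p under 0.01 and more than 2-fold, for the 134 members (dark bars) and all 13651 tested transcripts (light bars), in the 11 comparisons that the rule did not use. Members are called higher more often than all transcripts in every comparison with control 24 h, from 18.7% in mannitol 24 h to 82.8% in NaCl 60 min, whereas mannitol 24 h against mannitol 60 min has 50.7% called lower.

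The members' first NaCl time went with their level in mannitol, for which neither the grouping nor the rule had used the libraries compared. Of the 27 members first raised at 15 min of NaCl, 27 were called higher in mannitol 60 min against control 24 h, with a median of 4.65. The same count was 35 of 35 for those first raised at 30 min (median 3.32), 15 of 21 at 60 min (median 1.72) and 26 of 51 at 4 h (median 1.12), beside 14.7% of all transcripts. In mannitol 24 h the order was weaker, with 9 of 27, 8 of 35, 4 of 21 and 4 of 51 called and medians of 1.23, 1.16, 0.87 and 0.89. The difference between these groups of members was not tested.

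**Figure D5:**
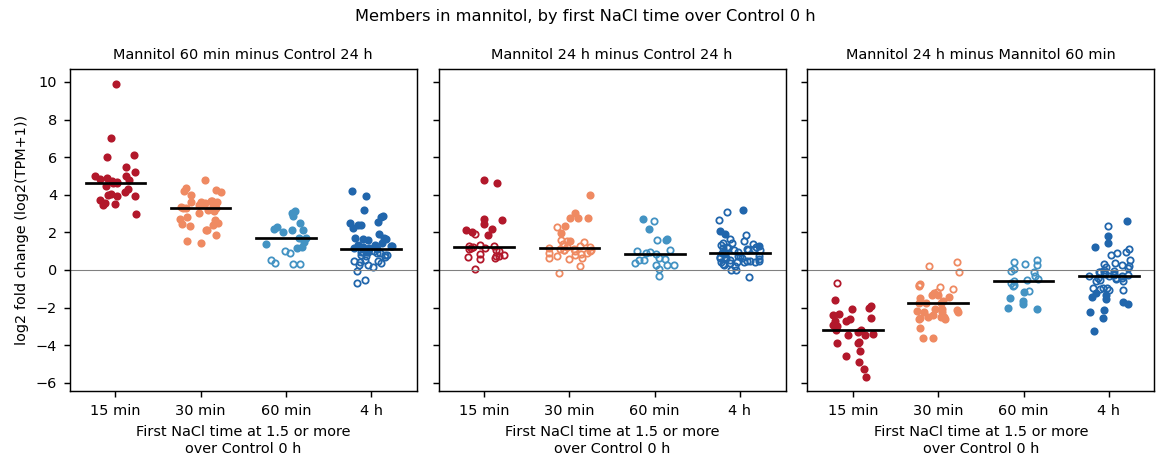
log2 fold changes on log2(TPM + 1) of members in mannitol 60 min minus control 24 h, mannitol 24 h minus control 24 h and mannitol 24 h minus mannitol 60 min, by first NaCl time at 1.5 or more over control 0 h; filled points were called, open points were not, and bars are medians. In the first panel medians run from 4.65 (15 min) to 1.12 (4 h), and in the third from -3.20 to -0.30.

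The transcripts with the largest changes in mannitol were again early ones. Cre01.g053000.t1.2 had 1361, 1774 and 2753 TPM in mannitol 60 min, against 0.148, 0.615, 1.03 and 3.09 TPM in control 24 h, a difference of 9.89 (SE 0.38, limma adjusted p = 4.1e-09). Cre13.g569850.t1.2 had 190, 141 and 111 TPM, against 0.444, 0, 0.147 and 0 TPM in control 24 h, a difference of 6.996 (SE 0.28, limma adjusted p = 3.2e-09) that depends on the pseudocount. In NaCl Cre13.g569850.t1.2 was highest at 30 min, at 59.4, 54.2 and 45.7 TPM, and had 8.34, 9.09 and 5.66 TPM at 24 h, against 0, 0, 0.266, 0.182 and 0.226 TPM in control 0 h.

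The fall after 60 min of mannitol was tested between mannitol 24 h and mannitol 60 min. Of the 134 members, 68 were called lower at 24 h (50.7%; 9.60% of all transcripts) and 4 higher (2.99%; 13.0%). The median member changed by -1.21 and the median of all transcripts by 0.31. With no filter on low values 8 members were called in place of 72 (22.6% of all). By first NaCl time, 26 of 27, 26 of 35, 6 of 21 and 10 of 51 fell, in the order 15 min, 30 min, 60 min and 4 h, with medians of -3.20, -1.78, -0.58 and -0.30. Cre13.g569850.t1.2 fell to 1.45, 1.02 and 3.49 TPM in mannitol 24 h, against 190, 141 and 111 TPM in mannitol 60 min (-5.69, SE 0.37, limma adjusted p = 8.5e-24). Cre01.g053000.t1.2 fell to 37.3, 27.8 and 101 TPM, against 1361, 1774 and 2753 TPM (-5.29, SE 0.39, limma adjusted p = 6.5e-15). Adjusted p this small rest mostly on a spread pooled over all transcripts, not on that of the libraries compared. With no filter the adjusted p in limma was 0.0098 for Cre13.g569850.t1.2 and 0.015 for Cre01.g053000.t1.2, which ended the call of Cre01.g053000.t1.2.

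The 4 members called higher in mannitol 24 h than in mannitol 60 min were Cre08.g367400.t1.1, Cre04.g223250.t1.3, g13808.t1 and Cre12.g527250.t1.2, by 2.62, 1.78, 1.42 and 1.22. Under median-ratio scaling, which moved the median of all transcripts from 0.31 to 0.07, all 74 members called were lower. The rise of Cre08.g367400.t1.1 (36.6, 35.9 and 189 TPM in mannitol 24 h, against 7.01, 8.58 and 13.7 TPM in mannitol 60 min; SE 0.57, limma adjusted p = 0.0044) and that of Cre04.g223250.t1.3 (2.81, 6.26 and 7.89 TPM, against 0.566, 0.508 and 1.57 TPM; SE 0.38, limma adjusted p = 0.00012) kept their direction there at 2.26 and 1.56 (limma adjusted p = 0.016 and 0.021), and that of Cre04.g223250.t1.3 lost its call without replicate 2 of mannitol 24 h (limma adjusted p = 0.011).

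Set directly against each other, NaCl had more members called higher than lower at 30 min, and more called lower than higher at 60 min. In NaCl 30 min against mannitol 30 min, 59 members were called higher (44.0%; 4.19% of all transcripts) and 4 lower (2.99%; 21.5%), and the median member differed by 0.84, beside -0.58 for all transcripts. In NaCl 60 min against mannitol 60 min, where 22 members were called in all with no filter, 17 were called higher (12.7%; 7.52%) and 35 lower (26.1%; 14.7%), with medians of -0.17 for members and -0.13 for all transcripts. At 60 min the balance of lower over higher calls was thus close to that of all transcripts. The 30 and 60 min comparisons share no libraries. Of the members called higher in NaCl at 30 min, 21 were called lower at 60 min and 7 were called higher at both times. These overlaps were not counted over all transcripts, so they are not read as a trait of the members.

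The 30 min calls were not stable. With no filter on low values limma called 0 of the 63 members, and without replicate 1 of mannitol 30 min it called 12; 80 members had an unadjusted p under 0.05 with the filter. Under median-ratio scaling, which moved the median of all transcripts from -0.58 to -0.13, all 81 members called were higher. The largest called differences at 30 min were in Cre03.g197300.t1.3 and Cre02.g118200.t1.2. Their small adjusted p rest mostly on a spread pooled over all transcripts, and with no filter neither was called. Cre03.g197300.t1.3 had 23.0, 20.6 and 25.4 TPM in NaCl, against 2.29, 3.24 and 1.28 TPM in mannitol (2.92, SE 0.34, limma adjusted p = 3.2e-15). Cre02.g118200.t1.2 had 70.4, 60.5 and 37.5 TPM in NaCl, against 6.43, 11.47 and 3.96 TPM in mannitol (2.84, SE 0.32, limma adjusted p = 3.3e-16). At 60 min Cre02.g118200.t1.2 did not pass the test (0.07, SE 0.34, limma adjusted p = 0.90), with 38.9, 44.2 and 30.1 TPM in NaCl and 65.1, 34.8 and 19.7 TPM in mannitol.

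The 4 members called lower in NaCl 30 min than in mannitol 30 min were Cre08.g367500.t1.1, Cre04.g223250.t1.3, g13034.t1 and Cre08.g367400.t1.1, at -1.33, -1.23, -1.10 and -1.07. Cre08.g367500.t1.1 had 4.63, 6.80 and 13.1 TPM in NaCl, against 31.0, 13.1 and 21.1 TPM in mannitol (SE 0.33, limma adjusted p = 0.00045). Cre04.g223250.t1.3 had 0.519, 0 and 0.266 TPM in NaCl, against 4.69, 1.24 and 0.957 TPM in mannitol (SE 0.30, limma adjusted p = 0.00048). Neither call held under median-ratio scaling, without replicate 1 of mannitol 30 min or without replicate 2 of NaCl 30 min, that of Cre08.g367500.t1.1 also not without replicate 1 of NaCl 30 min or replicate 3 of mannitol 30 min, and the NaCl and mannitol libraries of Cre08.g367500.t1.1 met at 13.1 TPM.

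At 60 min the members parted into those lower and those higher in NaCl. Cre07.g355850.t1.2 had 137, 143 and 200 TPM in NaCl 60 min, against 1586, 1937 and 2180 TPM in mannitol 60 min (-3.57, SE 0.28, limma adjusted p = 2.4e-08). Cre08.g360200.t1.2, the transcript with the dip at 60 min of NaCl, had 1.89, 2.62 and 1.84 TPM, against 36.4, 35.1 and 24.1 TPM in mannitol (-3.38, SE 0.29, limma adjusted p = 8.6e-08). Cre01.g053000.t1.2 was lower in NaCl as well (-2.90, SE 0.30, limma adjusted p = 5.6e-07). In all 3 the libraries of the osmolytes did not overlap.

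In the other direction, Cre16.g688550.t1.2 had 117, 146 and 151 TPM in NaCl 60 min, against 13.4, 20.9 and 24.0 TPM in mannitol 60 min (2.79, SE 0.28, limma adjusted p = 3.9e-07). In mannitol it averaged between 0.69 below and 0.12 above control 0 h at all 6 times, and in NaCl it was first raised at 60 min. g15359.t1 had 69.8, 77.0 and 72.3 TPM in NaCl 60 min, against 20.04, 12.1 and 8.36 TPM in mannitol 60 min (2.43, SE 0.30, limma adjusted p = 4.2e-06, and 0.015 with no filter). At mannitol 4 h it had 42.4, 72.5 and 41.3 TPM, against 9.75, 12.9, 10.7 and 3.77 TPM in control 24 h (2.42, SE 0.37, limma adjusted p = 0.0013). In all of these the NaCl 60 min libraries lay above the mannitol 60 min libraries, as they did for Cre10.g458450.t1.3, with 512, 621 and 623 TPM in NaCl and 179, 171 and 286 TPM in mannitol.

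At the late times NaCl was used by the rule, and its differences from mannitol are therefore values only. The median member was 1.26, 1.48 and 1.91 higher in NaCl than in mannitol at 4, 6 and 24 h, where the median of all transcripts differed by -0.13, -0.11 and -0.17. At 1.5 or more were 46 members at 4 h (0.894% of all transcripts), 63 at 6 h (1.00%) and 97 at 24 h (1.99%). At 24 h all 134 were higher in NaCl, by 0.01 (Cre03.g207800.t1.2) to 6.80 (Cre07.g321800.t1.2). At 15 min, which was not among the tests, 29 members were 1.5 or more higher in NaCl than in mannitol (1.23% of all transcripts) and the median member was 0.53 higher. At 4 h 3 members were lower in NaCl than in mannitol, Cre08.g367500.t1.1, Cre08.g367400.t1.1 and Cre17.g731800.t1.2, and at 6 h the first 2 were.

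Some members were also high in mannitol from 4 h on. Of the 134, 32 were 1.5 or more above control 24 h at mannitol 4, 6 and 24 h each, as 0.798% of all transcripts were. Above control 0 h 17 members were (0.190% of all transcripts). Cre03.g207800.t1.2 was the clearest of them. It had 111, 99.7 and 221 TPM in mannitol 6 h and 29.4, 38.3 and 77.1 TPM in mannitol 24 h, against 0.254, 0.844, 0.753 and 0.836 TPM in control 24 h, with differences of 6.36 (SE 0.30, limma adjusted p = 1.4e-05) and 4.78 (SE 0.33, limma adjusted p = 2.4e-05). Its control 24 h lay under 1 TPM, so these differences depend on the pseudocount, and its control 0 h was higher. In NaCl 24 h the transcript had 39.1, 29.0 and 78.1 TPM, the same range as in mannitol 24 h. Cre01.g053000.t1.2 was also higher in mannitol 24 h than in control 24 h (4.61, SE 0.49, limma adjusted p = 0.00057), at 37.3, 27.8 and 101 TPM, as was g9176.t1 (2.17, SE 0.35, limma adjusted p = 0.0067). For g9176.t1 control 24 h averaged under 1 TPM, so its difference depends on the pseudocount as well. The call of Cre01.g053000.t1.2 ended without replicate 1 of mannitol 24 h (limma adjusted p = 0.013) and that of g9176.t1 with any of 5 libraries left out. With no filter none of the mannitol 24 h calls named here held, Cre05.g235950.t1.2 included (limma adjusted p = 0.010 to 0.072).

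The neighbouring genes Cre08.g367400 and Cre08.g367500 had a course of their own. Both were lower than control 0 h in the first hour of NaCl, Cre08.g367500.t1.1 by -1.07, -1.90 and -1.70 and Cre08.g367400.t1.1 by -0.79, -1.49 and -1.07 at 15, 30 and 60 min. This was not confined to NaCl, since Cre08.g367400.t1.1 was also below control 0 h in mannitol 60 min. Against control 24 h neither was lower at these NaCl times. The differences were 1.02, 0.19 and 0.40 for Cre08.g367500.t1.1 and 0.90, 0.19 and 0.61 for Cre08.g367400.t1.1, and none was called. At 4 h they were high in both osmolytes. Cre08.g367500.t1.1 had 102, 71.1 and 204 TPM in NaCl 4 h and 80.5, 164 and 278 TPM in mannitol 4 h, against 3.196, 4.83, 4.60 and 21.4 TPM in control 24 h and 22.3, 28.4, 36.6, 22.4 and 53.6 TPM in control 0 h. Cre08.g367400.t1.1 had 128, 74.8 and 287 TPM in NaCl 4 h and 84.8, 192 and 337 TPM in mannitol 4 h, against 4.40, 3.17, 3.78 and 27.7 TPM in control 24 h. Against control 24 h the mannitol 4 h differences were 4.38 (SE 0.57, limma adjusted p = 0.0011) and 4.57 (SE 0.71, limma adjusted p = 0.0045). The first call ended without replicate 2 of mannitol 4 h (limma adjusted p = 0.012) and the second with any of 5 libraries left out, both ended with no filter, and in both the control 24 h replicate 5 was far above the other 3. Their sequences were not at hand, so whether reads could be shared between the neighbours was not examined.

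Control 24 h itself lay below control 0 h for most members. Of the 134, 110 were lower in control 24 h, where 85.0% of all transcripts were, so this direction was common to the whole table; the median member differed by -0.44 and the median of all transcripts by -0.30. None was at 1.5 or more (0.117% of all). At -1.5 or less were 9 members, which was not counted over all transcripts. The lowest of them were g1771.t1 at -2.51, Cre03.g207800.t1.2 at -2.39 and Cre08.g367500.t1.1 at -2.10. The highest member was g11098.t1 at 0.57. Differences from control 24 h are therefore wider than those from control 0 h for most members. NaCl 24 h was 1.5 or more above control 24 h in 133 of 134 (3.88% of all transcripts), with a median of 2.96. The rule had set NaCl 24 h at 1.5 or more above control 0 h, so this count was largely fixed by the choice.

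At the threshold the values were continuous. Just inside lay Cre01.g015500.t1.2, Cre09.g408800.t1.2 and Cre17.g735950.t1.2, with smallest differences of 1.51, 1.51 and 1.502. Just outside lay Cre08.g360400.t1.3, g3654.t1 and g12249.t1, with smallest differences of 1.499, 1.499 and 1.495. The smallest difference of Cre01.g015500.t1.2 was that at 24 h, with 75.6, 65.5 and 82.2 TPM in NaCl 24 h and 377, 357 and 410 TPM in NaCl 30 min, against 22.7, 21.1, 28.9, 21.7 and 35.1 TPM in control 0 h. With each library of the rule's groups left out in turn 126 to 148 transcripts met the rule, and 96 of the 134 met it every time. Under median-ratio scaling, or with a pseudocount of 0.1, 240 transcripts met it.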

How the data were processed

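Chlamydomonas RNA-seq of 45 libraries was analysed from TPM that the authors deposited, 1 column per library. Per the study's methods, reads were aligned with BWA to reference genome 5.6; how TPM were computed and how reads were filtered is not given in the sources used here, and depth is unknown, so precision is the spread between libraries. A last line without values was dropped. Groups and replicate numbers came from the labels.

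From log2(TPM + 1), group means gave the members. limma 3.58.1 in R 4.3.3 (two-sided, eBayes with trend and robust, the 2 groups of a comparison only, Benjamini-Hochberg over 13651 transcripts; adjusted p under 0.01 and more than 2-fold) gave the 11 tests; every adjusted p printed comes from it. Since eBayes pools the spread over all transcripts, the smallest adjusted p rest mostly on that pooled spread. Fold changes on this scale understate changes of low transcripts. The fit was tested on simulated data. Tables and plots were made in Python 3.11.15 with pandas 2.3.3, numpy 2.4.6 and matplotlib 3.10.9. The members, lists and tests were chosen with earlier results of these data known. Named were members of the listed identifiers, the 10 with the largest smallest difference, the 3 on each side of the threshold, and up to 2 called per direction in each comparison; members singled out for a dip, a decline, counts of 5 or fewer, control 24 h or as neighbours were named after their values were seen. Gene lists given by symbol, sequences and promoter motifs were not analysed here, since the reference table used (RefSeq, assembly v5.5) gives no symbols for the members.

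In mannitol 24 h against mannitol 60 min, same-numbered libraries deviated together (r = 0.18, 0.24 and 0.47). Replicate 1 of mannitol 24 h, however, correlated better with replicate 2 of mannitol 60 min (r = 0.25). These values therefore do not settle whether numbers pair the samples there. The blocked fit called 77 members and the unblocked 72. Alternatives were another scaling (median ratios), a pseudocount of 0.1, no filter, a mean of 5 TPM, adjusted p under 0.05, a log2 difference over 2, plain eBayes, a joint fit, a replicate block, a library series term and each library left out. The first library series alone, and TPM without g15293.t1, were added after the data were seen.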

Additional observations from a re-analysis of the deposited data

Results flagged for a closer look

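In 6 of 52 groups of control libraries of the named transcripts, 1 library stood far from the others in its group. The cut-off flags about 1 in 20 of independent, normally spread groups. The 52 groups reuse the same libraries and hold raw TPM, so that rate is no yardstick here. In control 24 h, replicate 5 held the highest value of 4 transcripts: 27.7 TPM of Cre08.g367400.t1.1 (the others 3.17 to 4.40), 190.7 TPM of Cre10.g458450.t1.3 (68.9 to 89.7), 21.4 TPM of Cre08.g367500.t1.1 (3.196 to 4.83) and 4.19 TPM of g7557.t1 (the others listed at 0). Replicate 5 belongs to the libraries with label numbers of 49 or higher, and its part in these values was not tested. Replicate 2 of control 24 h held the lowest value of Cre03.g207800.t1.2, 0.254 TPM (0.753 to 0.844). In control 0 h, replicate 4 held 0.165 TPM of Cre08.g360200.t1.2, the others being listed at 0.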

How the results depend on the processing

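The number of members, 134, was 240 under median-ratio scaling (133 of the 134 among them), 240 with a pseudocount of 0.1, 278 at a threshold of 1, 70 at a threshold of 2 and 355 with control 24 h as the baseline (130 of the 134), and 126 to 148 with single libraries left out. For 29 of the printed changes 509 alternatives were run: none reversed, 439 stayed on their side of the threshold (Cre07.g321800.t1.2 in mannitol 24 h, never called, among them) and 70 lost the call.

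Members called, with a log2 difference over 2, were 27 in NaCl 15 min, 61 in NaCl 30 min, 66 in NaCl 60 min, 15 in mannitol 30 min, 36 in mannitol 4 h and 32 in mannitol 6 h against control 24 h, 17 in NaCl 30 min against mannitol 30 min and 19 in NaCl 60 min against mannitol 60 min. With no filter, which adds transcripts near 0 to the fit, they were 38 (NaCl 15 min), 2 (mannitol 30 min), 6 (mannitol 4 h), 26 (mannitol 6 h) and 2 (mannitol 24 h) against control 24 h, 0 in NaCl 30 min against mannitol 30 min, 22 in NaCl 60 min against mannitol 60 min and 8 in mannitol 24 h against mannitol 60 min; the cause was not tested. In mannitol 30 min they were 11 under median-ratio scaling, 23 with plain eBayes and 62 in the first library series alone. In mannitol 24 h they were 53 at an adjusted p under 0.05, 54 in a joint fit, 67 with a library series term and 63 in the first series alone, and in mannitol 6 h 86 with that term.

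The replicate block, in comparisons whose samples share only a number (control 24 h shares numbers 2 and 3, with r of 0.12 to 0.31 and -0.45 to -0.23), called 26 members in NaCl 15 min, 18 in mannitol 30 min, 30 in mannitol 4 h, 1 in mannitol 6 h and 0 in mannitol 24 h. It moved no other count by over 1.5 times. Of the 6 libraries of NaCl against mannitol at 30 and at 60 min, not every one correlated best with its own number.

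With single libraries left out, the members called against control 24 h numbered 39 to 73 (NaCl 15 min), 11 to 64 (mannitol 30 min), 22 to 81 (mannitol 4 h), 26 to 70 (mannitol 6 h) and 6 to 46 (mannitol 24 h), and 12 to 68 in NaCl 30 min against mannitol 30 min. With 3 to 5 libraries a group and unknown depth, differences of transcripts near 1 TPM are the least certain.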
